A study of Mus musculus with 3 samples.

Results

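The microRNAs miR-99a, miR-99b, miR-100, miR-125a and miR-125b form a family of related sequences that are made together with let-7 microRNAs in mammals. A read was taken as a member when its first 20 bases equalled those of the mature mouse sequence, on either arm of the hairpin precursor. The arms are called 5p and 3p. The rule gave 11 mature microRNAs among the 1627 of at least 20 bases in the RefSeq table used. Their reads numbered 2477 in sperm and 685 in testis, against 49961 in uterus. Small RNAs had been sequenced from CD1 mice, an outbred stock, with 1 library from each of 3 sources. The sperm were mature cells from the cauda epididymis, where sperm are stored, and had been treated with a detergent buffer that lyses somatic cells. The other libraries came from adult testis and adult uterus, tissues that hold many cell types. The sources used here give no other age and no number of animals, and name no genetic change or other treatment. Every group being a single library, differences could not be set against a spread between replicates, and none was tested.

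MicroRNAs guide Argonaute proteins to messenger RNAs, mainly by pairing through the seed, which is bases 2 to 8 of the mature strand. One strand of each hairpin duplex is usually kept, and the other is degraded. In worms, lin-4, the relative of miR-125, and let-7 time the steps of larval development. In mammals miR-125 and let-7 both act on Lin28, and miR-99 and miR-100 act on components of the mTOR and insulin-like growth factor pathways.

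The mature 5p sequences are shown because the seed divides the family into a pair of groups. They are from RefSeq (GRCm38.p6), run 5′ to 3′, and have the seed in capitals.
miR-99a-5p: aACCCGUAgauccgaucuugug
miR-99b-5p: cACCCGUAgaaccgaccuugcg
miR-100-5p: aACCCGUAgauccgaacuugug
miR-125a-5p: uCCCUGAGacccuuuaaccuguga
miR-125b-5p: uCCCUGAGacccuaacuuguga
The seed ACCCGUA was shared by miR-99a-5p, miR-99b-5p and miR-100-5p, and the seed CCCUGAG by miR-125a-5p and miR-125b-5p. Counted from 1 at the 5′ end, miR-99a-5p and miR-100-5p differed by 1 substitution, U16A, with the base of miR-99a-5p given first. miR-99a-5p and miR-99b-5p differed at 4 positions (A1C, U11A, U16C and U21C). miR-125b-5p and miR-125a-5p differed at 7 of their first 22 positions, from A14U onward, and mature miR-125a-5p has 24 bases against 22 for miR-125b-5p.

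The 3p sequences are shown because they tell apart the paired genes that make miR-125b. The seed is again in capitals.
miR-99a-3p: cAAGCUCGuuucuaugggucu
miR-99b-3p: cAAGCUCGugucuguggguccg
miR-100-3p: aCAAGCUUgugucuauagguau
miR-125a-3p: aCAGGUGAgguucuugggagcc
miR-125b-1-3p: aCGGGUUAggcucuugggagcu
miR-125b-2-3p: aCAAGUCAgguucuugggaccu
Only miR-99a-3p and miR-99b-3p shared a seed among these 6. The mature miR-125b-5p made from Mir125b-1 and from Mir125b-2 is identical, so its reads could not be divided between the genes.

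The genes lie in 3 clusters on the plus strand, each with a let-7 gene in the middle (GRCm38.p6). Mir99a, Mirlet7c-1 and Mir125b-2 span 47404 bp at chr16:77598936-77646339, and Mir99a and Mir125b-2 lie in introns of Mir99ahg, a non-coding host gene. Mir100, Mirlet7a-2 and Mir125b-1 span 50578 bp at chr9:41531425-41582002. Mir100 and Mir125b-1 lie in introns of the non-coding genes 3110039I08Rik and Gm49317, and an annotated exon of Gm28119 covers Mir125b-1. Mir99b, Mirlet7e and Mir125a span 686 bp at chr17:17830194-17830879, within the protein-coding gene Spaca6. Mir99b is intronic there, and Mir125a overlaps an annotated exon. For Mir99b and Mir125b-2 the spans are counted from the mature sequences. On the minus strand, an exon of Gm48742 overlies Mir100 and an intron of Gm11146 overlies Mir99a. The hairpins of 4 genes are shown because the bases that follow each mature arm are the template against which the 3′ ends of reads were judged. Mature arms are in capitals.
Mir99a: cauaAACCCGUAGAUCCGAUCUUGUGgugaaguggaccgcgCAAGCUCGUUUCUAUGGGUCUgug
Mir100: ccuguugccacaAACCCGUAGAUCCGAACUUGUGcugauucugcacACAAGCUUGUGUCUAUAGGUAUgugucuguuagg
Mir125a: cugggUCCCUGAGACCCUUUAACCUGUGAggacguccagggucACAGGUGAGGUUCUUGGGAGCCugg
Mir125b-1: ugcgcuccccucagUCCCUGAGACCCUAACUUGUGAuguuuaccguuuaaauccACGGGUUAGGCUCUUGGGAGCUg

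Depth was 15690722 reads in the sperm library and 23783785 in the testis library, against 15876066 in the uterus library. Reads that began with a mature microRNA of the RefSeq table numbered 380269 (2.42%) in sperm and 164631 (0.692%) in testis, against 11053534 (69.6%) in uterus. Levels below are reads per 1000000 of these microRNA reads unless another scale is named. A count of 0 allows a level of up to 7.89 in sperm and 18.2 in testis, against 0.271 in uterus, from 3 counts. Intervals are exact 95% intervals and cover counting error only, since PCR reads without molecular identifiers are not independent molecules. In testis, 30.5% of the microRNA reads began like miR-7210-5p (50177 reads), and 99.6% of those were at least 26 nt long. That is longer than a microRNA, and it lowers every testis level on this scale. The uterus scale is weighted by let-7 reads. Per 1000000 microRNA reads, let-7c-5p stood at 131775 in sperm and 101220 in testis, against 319247 in uterus. let-7a-5p stood at 67192 in sperm and 61392 in testis, against 126663 in uterus. Such reads lower the uterus levels of the other microRNAs on this scale more than those of sperm.

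Marker microRNAs were set against the labels. The 8 listed X-linked testis microRNAs, which are made in male germ cells, summed to 17585 in sperm and 20537 in testis, against 0 in uterus, where all 8 were at 0. The 4 matched germ cell markers summed to 48608 in sperm and 35297 in testis, against 26.2 in uterus. In sperm most of that sum was miR-184-3p, at 48374, beside 5734 in testis. The other 3 were lower in sperm than in testis. miR-34b-5p stood at 126 in sperm and 9008 in testis, miR-449a-5p at 103 in sperm and 5418 in testis, and miR-202-5p at 5.26 in sperm and 15137 in testis, with 0 in uterus. The 5 epithelial markers of the miR-200 family summed to 108644 in sperm and 279 in testis, against 682 in uterus. The 4 matched leukocyte markers summed to 4447 in sperm and 255 in testis, against 116 in uterus, and miR-142a-3p was at 0 in testis. The endothelial marker miR-126a-3p stood at 366 in sperm, 6.07 in testis and 8.50 in uterus. The 2 erythroid markers summed to 76.3 in sperm and 285 in testis, against 111 in uterus, and miR-144-3p was at 0 in sperm. Of the 3 listed striated muscle markers only miR-206-3p was matched, and it stood at 281 in sperm, 12.1 in testis and 4.89 in uterus. The 2 matched stromal and smooth muscle markers summed to 1039 in sperm and 4185 in testis, against 41666 in uterus. The epithelial and leukocyte sums in sperm stand beside every sperm value below, and their part in the results was not tested. In bulk samples, fewer cells of a type and less RNA per cell cannot be told apart.

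Of all microRNA reads the family took 0.651% (0.626 to 0.677) in sperm, 0.416% (0.386 to 0.448) in testis and 0.452% (0.448 to 0.456) in uterus. Per 1000000 reads of the whole library the order was different, with 158 in sperm, 28.8 in testis and 3147 in uterus. The family was thus a small part of the microRNAs in each library, and its rank between libraries depended on what the reads were divided by. A read was found for 10 members in sperm, 9 in testis and all 11 in uterus. miR-100-3p had no read in sperm, and neither miR-125b-1-3p nor miR-125b-2-3p had one in testis. The 5p arms held 2463 of the family reads in sperm and 671 in testis, against 48992 in uterus.

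miR-125b-5p, which is abundant in many adult tissues, stood at 2312 (2161 to 2470) in sperm, 820 (688 to 971) in testis and 1856 (1831 to 1882) in uterus. It led the family in sperm and uterus and came after miR-99b-5p and miR-99a-5p in testis. miR-99b-5p stood at 1793 (1661 to 1933) in sperm, 1373 (1200 to 1564) in testis and 861 (844 to 879) in uterus. It led the family in testis and came second in sperm. miR-99a-5p stood at 1197 (1089 to 1312) in sperm, 954 (810 to 1115) in testis and 852 (835 to 869) in uterus. miR-100-5p stood at 586 (512 to 669) in sperm, 656 (538 to 792) in testis and 195 (187 to 203) in uterus. It was the lowest 5p member in sperm and uterus. miR-125a-5p stood at 589 (514 to 671) in sperm and 273 (199 to 366) in testis, against 668 (653 to 683) in uterus, and was lowest in testis. In sperm the intervals of miR-125a-5p and miR-100-5p overlapped, and so did those of miR-99b-5p and miR-99a-5p in uterus. In testis the intervals of miR-99a-5p and miR-125b-5p overlapped, as did those of miR-125b-5p and miR-100-5p. The reads behind these levels ran from 223 to 879 in sperm, from 45 to 226 in testis and from 2155 to 20520 in uterus.

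**Figure D1:**
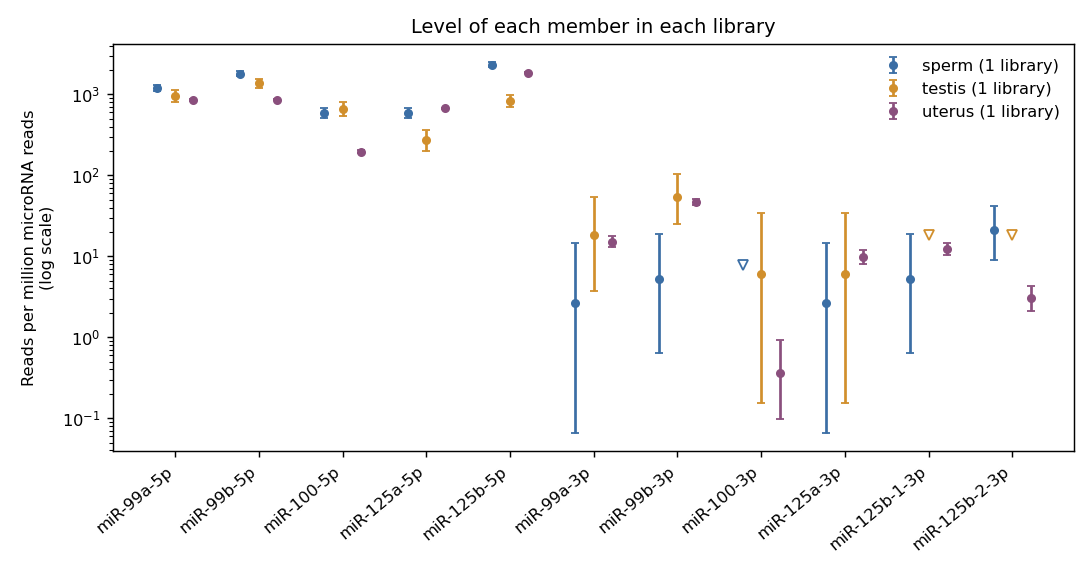
Level of each of the 11 members in sperm, testis and uterus, in reads per 1000000 microRNA reads on a log axis, 1 library each. Bars on the points are exact 95% Poisson intervals, and open triangles mark the level that a count of 0 allows, drawn for members without a read. The 5p members lie between 195 and 2312, and the 3p members lie below 55 in every library.

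Among all microRNAs with a read, miR-125b-5p ranked 43 of 428 in sperm, 70 of 388 in testis and 22 of 630 in uterus. miR-99b-5p ranked 50 in sperm, 54 in testis and 36 in uterus. miR-125a-5p ranked 81 in sperm, 116 in testis and 38 in uterus. None of the 5 was among the 20 most abundant microRNAs of any library.

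The mix within a library does not depend on the scaling. Its values are shares of reads, and the efficiency with which each sequence is ligated and amplified was not measured. miR-125b-5p was 35.5% (33.6 to 37.4) of family reads in sperm and 19.7% (16.8 to 22.9) in testis, against 41.1% (40.6 to 41.5) in uterus. miR-99b-5p was 27.5% (25.8 to 29.3) in sperm, 33.0% (29.5 to 36.7) in testis and 19.1% (18.7 to 19.4) in uterus. The intervals of the 3 libraries did not overlap for miR-125b-5p, and for miR-99b-5p sperm lay between the others. miR-100-5p was 9.0% (7.90 to 10.2) in sperm, 15.8% (13.1 to 18.7) in testis and 4.31% (4.14 to 4.50) in uterus. miR-125a-5p was 9.04% (7.94 to 10.2) in sperm, 6.57% (4.83 to 8.69) in testis and 14.8% (14.5 to 15.1) in uterus. miR-99a-5p varied least, at 18.4% in sperm and 22.9% in testis, against 18.8% in uterus, and its sperm and uterus intervals overlapped.

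**Figure D2:**
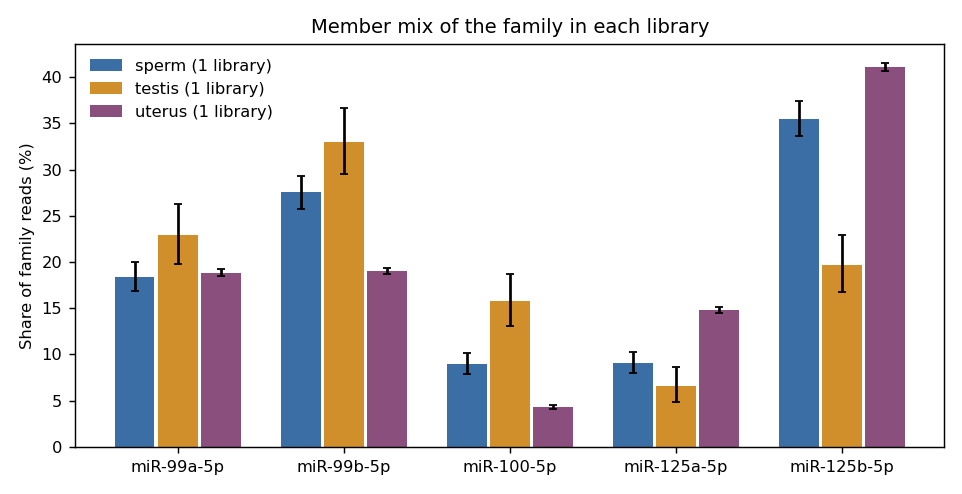
Share of family reads, in percent, held by each 5p member in sperm, testis and uterus (1 library each), with exact 95% intervals for counting error. miR-125b-5p takes 35.5% in sperm and 19.7% in testis, against 41.1% in uterus, and miR-99b-5p is the largest share in testis at 33.0%.

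Grouped by seed, the ACCCGUA members held 55.2% (53.2 to 57.2) of the 5p reads in sperm and 73.2% (69.7 to 76.5) in testis, against 43.0% (42.6 to 43.5) in uterus. The ratio of ACCCGUA to CCCUGAG reads was 1.23 (1.14 to 1.34) in sperm, 2.73 (2.29 to 3.25) in testis and 0.756 (0.742 to 0.769) in uterus. Testis thus held more reads of the miR-99 and miR-100 seed, uterus held more of the miR-125 seed, and sperm lay between them.

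Pairs of members made from the same cluster were not in a fixed ratio. On chromosome 17, miR-99b-5p over miR-125a-5p was 3.04 (2.61 to 3.56) in sperm, 5.02 (3.63 to 7.08) in testis and 1.29 (1.25 to 1.33) in uterus. The 3 intervals did not overlap, although the genes lie within 686 bp. On chromosome 9, miR-125b-5p over miR-100-5p was 3.94 (3.40 to 4.59) in sperm, 1.25 (0.963 to 1.63) in testis and 9.52 (9.11 to 9.96) in uterus. On chromosome 16, miR-125b-5p over miR-99a-5p was 1.93 (1.72 to 2.17) in sperm, 0.860 (0.678 to 1.09) in testis and 2.18 (2.13 to 2.23) in uterus. In both of these the miR-125b-5p reads are the sum over its 2 genes. Between clusters, miR-99a-5p over miR-100-5p was 2.04 (1.73 to 2.41) in sperm, 1.45 (1.13 to 1.87) in testis and 4.37 (4.17 to 4.58) in uterus. miR-125b-5p over miR-125a-5p varied less, at 3.92 (3.38 to 4.56) in sperm, 3.0 (2.13 to 4.30) in testis and 2.78 (2.71 to 2.85) in uterus.

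The let-7 microRNAs of the clusters were set beside their neighbours. let-7e-5p, made from the chromosome 17 cluster, had 480 reads in sperm and 815 in testis, against 213818 in uterus. Its ratio to miR-99b-5p was 0.704 (0.625 to 0.792) in sperm, 3.61 (3.11 to 4.20) in testis and 22.5 (22 to 22.9) in uterus. Its ratio to miR-125a-5p was 2.14 (1.82 to 2.52) in sperm, 18.1 (13.4 to 25) in testis and 29.0 (28.3 to 29.6) in uterus. Thus let-7e-5p had fewer reads than miR-99b-5p in sperm and more in the other libraries. let-7c-5p over miR-99a-5p was 110 in sperm, 106 in testis and 375 in uterus. let-7a-5p over miR-100-5p was 115 in sperm, 93.6 in testis and 650 in uterus. The mature let-7a-5p and let-7c-5p are also made from genes outside these clusters, so their ratios do not compare products of 1 cluster.

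Set against testis, sperm had the family at 1.57 times the level (1.44 to 1.71), but at 1.07 (0.982 to 1.17) with reads of 20 to 24 nt only and 1.16 (0.812 to 1.67) over distinct sequences, where the intervals held 1. It was 1.09 without miR-7210-5p in the denominator. miR-125b-5p was 2.82 (2.35 to 3.40) times as high in sperm as in testis and miR-125a-5p 2.16 (1.56 to 3.04) times. Over the alternatives the ratio of miR-125b-5p ran from 1.92 to 9.87 and that of miR-125a-5p from 1.49 to 7.55. Over distinct sequences both intervals held 1, at 2.10 (0.876 to 5.53) for miR-125b-5p and 1.76 (0.667 to 5.17) for miR-125a-5p. miR-99b-5p stood at 1.31 (1.12 to 1.53) times its testis level and miR-99a-5p at 1.25 (1.04 to 1.51) times. These turned to 0.893 and 0.852 with reads of 20 to 24 nt, so no direction is given for them. The ratio of miR-100-5p was 0.894 (0.707 to 1.14), and it moved to either side of 1 with the denominator. It was 0.609 (0.481 to 0.774) with reads of 20 to 24 nt, but 1.49 (1.18 to 1.89) with TMM factors and 3.13 (2.48 to 3.98) per 1000000 of all reads. A microRNA was counted as apart at a ratio of 4 or more either way, given 100 or more reads in whichever library was higher. None of the 5 members that could be counted was apart between sperm and testis, beside 59.1% of the 127 microRNAs counted (33.1% higher and 26% lower in sperm). The median log2 ratio of the 5 members was 0.39, beside -0.07 over all 127.

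Set against uterus, sperm had the family at 1.44 times the level (1.38 to 1.5), but at 0.533 with DESeq2 size factors, 0.343 with TMM factors and 0.0502 per 1000000 of all reads. The direction therefore rests on the denominator, which leaves the order of the members unchanged. miR-100-5p had the highest ratio, 3.01 (2.61 to 3.45), followed by miR-99b-5p at 2.08 (1.92 to 2.25) and miR-99a-5p at 1.40 (1.28 to 1.54). miR-125b-5p was at 1.25 (1.16 to 1.33) and miR-125a-5p at 0.882 (0.769 to 1.01). All ACCCGUA members thus lay above both CCCUGAG members, but the intervals of miR-99a-5p and miR-125b-5p overlapped. Of the 9 members counted, 2 were at least 4-fold apart, both lower in sperm on this scale, beside 57.9% of the 209 microRNAs counted (40.2% higher and 17.7% lower in sperm). These were miR-99b-3p, at 0.112 (0.0136 to 0.407) with 2 sperm reads against 518 in uterus, and miR-99a-3p, at 0.173 (0.00435 to 0.977) with 1 sperm read against 168 in uterus. Over distinct sequences in place of reads, 0 were that far apart. The 3p members counted reached the count minimum in uterus only, which for them favours a lower call in sperm. For miR-125a-3p that call was not possible. Its uterus level was 9.86, while 1 sperm read is a level of 2.63 and a 0 was taken as 7.89. miR-125b-2-3p was not counted, with 8 sperm reads against 34 in uterus, and its ratio was 6.84 (2.74 to 15.1). With a minimum of 20 reads, 3 members were apart, 1 higher and 2 lower in sperm. The median log2 ratio of the 5p members was 0.49, beside 0.95 over all 209.

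Set against uterus, testis had the family at 0.921 (0.852 to 0.993), which became 1.37 with reads of 20 to 24 nt and 0.00915 per 1000000 of all reads. The members lay apart by seed, here without overlap of intervals between the seed groups. miR-100-5p was at 3.36 (2.75 to 4.08), miR-99b-5p at 1.59 (1.39 to 1.82) and miR-99a-5p at 1.12 (0.95 to 1.31), against 0.442 (0.370 to 0.523) for miR-125b-5p and 0.409 (0.298 to 0.548) for miR-125a-5p. None of the 9 members counted was at least 4-fold apart, beside 42.9% of 210 microRNAs (34.3% higher and 8.57% lower in testis). For miR-99a-3p, miR-125a-3p and miR-125b-1-3p a lower call in testis was not possible. Their uterus levels were 15.2, 9.86 and 12.3, while 1 testis read is a level of 6.07 and a 0 was taken as 18.2. The split by seed in both comparisons with uterus did not hold over distinct sequences in place of reads, where miR-99b-5p was at 0.343 in the comparison of sperm and at 0.495 in that of testis. There miR-125a-5p was at 1.06 for sperm and at 0.602 for testis. The comparisons share libraries, so they are not independent of one another.

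**Figure D3:**
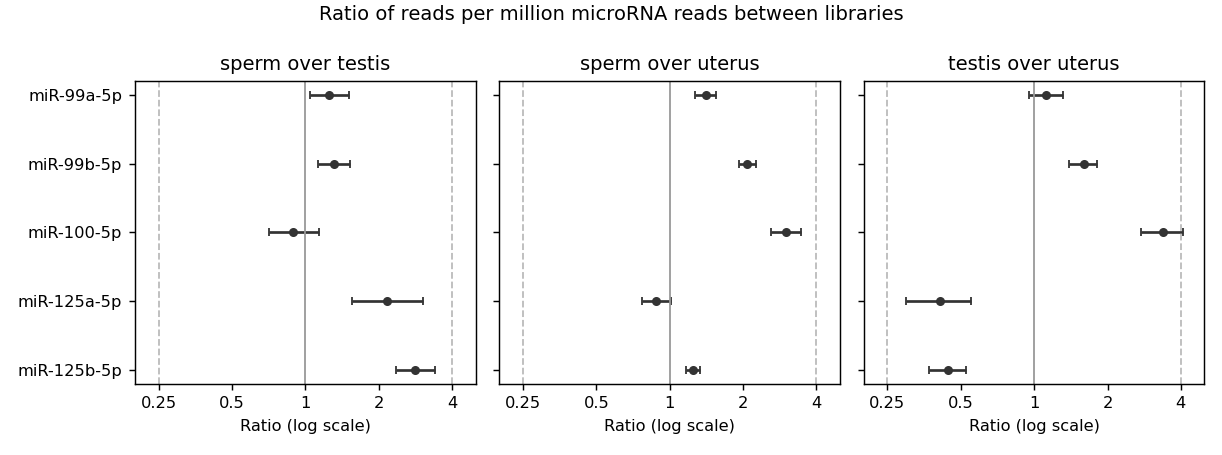
Ratio between libraries of each 5p member in reads per 1000000 microRNA reads, on a log axis, for sperm over testis, sperm over uterus and testis over uterus, with exact 95% intervals for counting error (1 library per group). Dashed lines mark 4-fold either way. In both comparisons with uterus miR-100-5p lies highest, at 3.01 and 3.36, and all ratios of a comparison move together under another denominator, which puts the family below 1 in both per 1000000 of all reads.

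The 5p arm held nearly all reads of each hairpin. The 3p arm made up 0.565% (0.309 to 0.946) of family reads in sperm and 2.04% (1.12 to 3.41) in testis, against 1.94% (1.82 to 2.06) in uterus. The interval of sperm did not overlap that of testis or that of uterus. miR-99b had the largest 3p share in testis and uterus. It was 0.292% (0.0354 to 1.05) in sperm, 3.83% (1.77 to 7.15) in testis and 5.16% (4.74 to 5.61) in uterus. The 3p share of miR-99a was 0.219% (0.00555 to 1.22) in sperm, 1.88% (0.388 to 5.38) in testis and 1.75% (1.5 to 2.04) in uterus. That of miR-125a was 0.444% in sperm, 2.17% in testis and 1.45% in uterus, on 1 sperm, 1 testis and 109 uterus reads. miR-100-3p had 0 reads in sperm and 1 in testis, against 4 in uterus, which made 0.185% (0.0505 to 0.474) of the hairpin's reads in uterus. miR-125b had a 3p share of 1.12% (0.541 to 2.06) in sperm, 0% (0 to 2.70) in testis and 0.822% (0.703 to 0.954) in uterus. The testis interval, beside 135 reads of the 5p arm, held the other intervals, so no order of libraries is given for miR-125b. Its 3p share was the largest in sperm and held 10 of the 14 sperm 3p reads.

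The 3p reads of miR-125b name their gene. In sperm, miR-125b-2-3p (chromosome 16) had 8 reads and miR-125b-1-3p (chromosome 9) had 2. In uterus miR-125b-2-3p had 34 reads and miR-125b-1-3p had 136, and in testis both were at 0. miR-125b-1-3p was thus 20% (2.52 to 55.6) of these reads in sperm and 80% (73.2 to 85.7) in uterus, where it was 57.1% when only the first 18 bases were matched. The intervals of the main values did not overlap, but the sperm value rests on 10 reads. Without sequences of a single read it was 0% in sperm. The share of 3p reads does not give the share of miR-125b-5p made by each gene.

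The length forms are shown because the commonest form of the ACCCGUA members was different in sperm. Reads are given in DNA letters as sequenced, with bases that depart from the hairpin in capitals. For miR-99b-5p, whose reads were compared with the mature sequence, capitals mark a base past its end.
miR-99a-5p, 21 nt: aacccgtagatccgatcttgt
miR-99a-5p, 22 nt: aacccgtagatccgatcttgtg
miR-99a-5p, 23 nt with T: aacccgtagatccgatcttgtgT
miR-99b-5p, 21 nt: cacccgtagaaccgaccttgc
miR-99b-5p, 22 nt: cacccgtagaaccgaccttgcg
miR-99b-5p, 23 nt with T: cacccgtagaaccgaccttgcgT
miR-100-5p, 21 nt: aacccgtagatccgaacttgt
miR-100-5p, 22 nt: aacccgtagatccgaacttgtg
miR-100-5p, 23 nt with A: aacccgtagatccgaacttgtgA
The form of 21 nt, which lacks the last base, was the commonest of all 3 members in sperm, and the mature 22 nt was commonest in testis and uterus. The commonest length led by few reads for miR-99a-5p in sperm, with 173 reads of 21 nt beside 159 of 22 nt, and for miR-100-5p in testis, with 39 reads of 22 nt beside 37 of 21 nt. Reads of 21 nt made up 48.1% (44.3 to 51.9) of miR-99b-5p in sperm, 23.9% (18.5 to 30.0) in testis and 20.0% (19.2 to 20.9) in uterus. For miR-100-5p they made up 45.7% (39.1 to 52.5) in sperm and 34.3% (25.4 to 44.0) in testis, against 24.2% (22.4 to 26) in uterus. For miR-99a-5p they made up 38.0% (33.5 to 42.7) in sperm and 35.7% (28.2 to 43.7) in testis, against 28.7% (27.8 to 29.6) in uterus, so that the intervals of sperm and testis overlapped for both of these members.

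A shorter commonest length in sperm was found for 3 of the 4 members with at least 100 reads in both sperm and testis, beside 16 of 67 microRNAs in all (23.9%), and the members counted include these near ties. Against uterus it was found for 3 of 5 members, beside 23 of 79 microRNAs (29.1%). Between testis and uterus it was shorter in testis for 0 of 4 members, beside 2 of 60 microRNAs (3.33%). A shorter commonest form in sperm was thus also seen in microRNAs outside the family.

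The CCCUGAG members kept a commonest length of 22 nt in all 3 libraries. For miR-125a-5p this is shorter than the mature 24 nt. Its forms and those of miR-125b-5p are shown because they differ in how far they extend.
miR-125a-5p, 20 nt: tccctgagaccctttaacct
miR-125a-5p, 22 nt: tccctgagaccctttaacctgt
miR-125a-5p, 24 nt: tccctgagaccctttaacctgtga
miR-125b-5p, 21 nt: tccctgagaccctaacttgtg
miR-125b-5p, 22 nt: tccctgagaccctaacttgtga
miR-125b-5p, 22 nt ending in T: tccctgagaccctaacttgtgT
miR-125b-5p, 23 nt with A: tccctgagaccctaacttgtgaA
The 20 nt form of miR-125a-5p was read 2 times in sperm and 0 times in testis, against 1930 times in uterus, and made up 0.893% of its sperm reads and 0% of its testis reads, against 26.1% of its uterus reads. The mature form of 24 nt made up 14.3% in sperm and 24.4% in testis, against 4.92% in uterus. A share at 20 nt as large as that of miR-125a-5p in uterus was found for 12 of 182 uterus microRNAs (6.59%). Matching only the first 18 bases, which lets in shorter reads, left 22 nt commonest in uterus at 41.1%. The mature 22 nt form made up 70.8% of miR-125b-5p in sperm, 71.1% in testis and 69.9% in uterus. Its other lengths differed, with reads of 21 nt at 17.5% (15.1 to 20.2) in sperm, 7.41% (3.61 to 13.2) in testis and 15.3% (14.8 to 15.8) in uterus. Reads of 23 nt made up 1.82% (1.04 to 2.94) in sperm, 9.63% (5.23 to 15.9) in testis and 6.18% (5.86 to 6.52) in uterus.

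**Figure D4:**
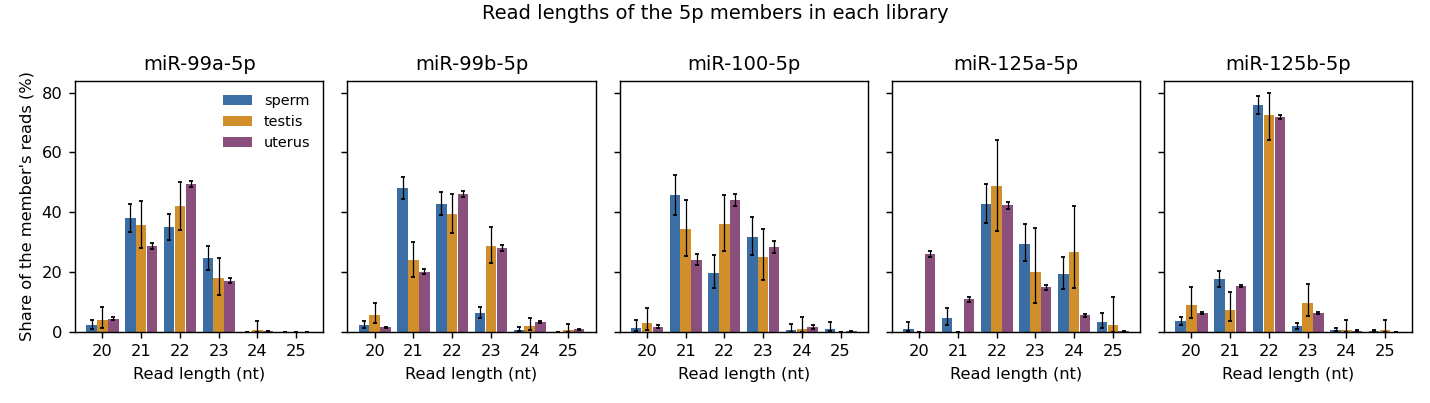
Share of reads by length, in percent of each 5p member's reads, in sperm, testis and uterus (1 library each), with exact 95% intervals for counting error. The 21 nt reads of miR-99b-5p make up 48.1% in sperm and 23.9% in testis, against 20.0% in uterus, and the 20 nt reads of miR-125a-5p stand out in uterus at 26.1%.

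Many reads ended in bases that the hairpin does not hold. Neither the adapter sequence nor the trimming is given in the sources used here, so an added base and a base left from the adapter cannot be told apart. Reads departing from the hairpin made up 33.2% (27.0 to 39.8) of miR-100-5p in sperm, 27.8% (19.6 to 37.2) in testis and 30.6% (28.6 to 32.6) in uterus. For miR-99a-5p they made up 26.6% (22.6 to 30.9) in sperm and 21% (14.9 to 28.2) in testis, against 17.9% (17.1 to 18.7) in uterus. For miR-125b-5p they made up 7.74% (6.06 to 9.70) in sperm and 12.6% (7.51 to 19.4) in testis, against 8.07% (7.70 to 8.45) in uterus. For miR-125a-5p they made up 12.5% (8.47 to 17.6) in sperm and 8.89% (2.48 to 21.2) in testis, against 3.05% (2.67 to 3.47) in uterus. Thus miR-99a-5p and miR-100-5p carried a larger share of such ends than miR-125a-5p and miR-125b-5p in sperm and uterus. This is not given as a trait of the ACCCGUA seed, since miR-99b-5p had no hairpin to compare with. Its reads ran past the mature end in 6.89% in sperm, 30.5% in testis and 32.0% in uterus. They departed before that end in 0.293% in sperm, 4.42% in testis and 3.62% in uterus. In sperm each of these shares was below those of miR-125a-5p and miR-125b-5p. In testis the intervals of miR-99a-5p overlapped those of miR-125b-5p and miR-125a-5p, and the interval of miR-100-5p overlapped that of miR-125a-5p.

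The base that followed a full mature sequence was counted for the 4 members of 22 nt, and not for miR-125a-5p. miR-100-5p with an added A made up 24.7% in sperm and 13.9% in testis, against 20.6% in uterus, and with an added T 7.17% in sperm, 11.1% in testis and 7.33% in uterus. miR-99a-5p with A made up 14.1% (11 to 17.6) in sperm and 3.18% (1.04 to 7.28) in testis, against 6.53% in uterus, while T made up 10.1% in sperm and 14.0% in testis, against 10.4% in uterus. For miR-99b-5p a further A was at 2.79% in sperm and 11.1% in testis, against 12.8% in uterus, and a further T at 3.08% in sperm, 16.4% in testis and 13.9% in uterus. Thus the share with A was larger in sperm than in uterus for miR-99a-5p and smaller for miR-99b-5p. miR-125b-5p with A made up 0.910% in sperm and 8.89% in testis, against 5.29% in uterus. Its form with T in place of the last base was 4.89% in sperm, 1.48% in testis and 1.40% in uterus, on 43 sperm, 2 testis and 287 uterus reads.

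**Figure D5:**
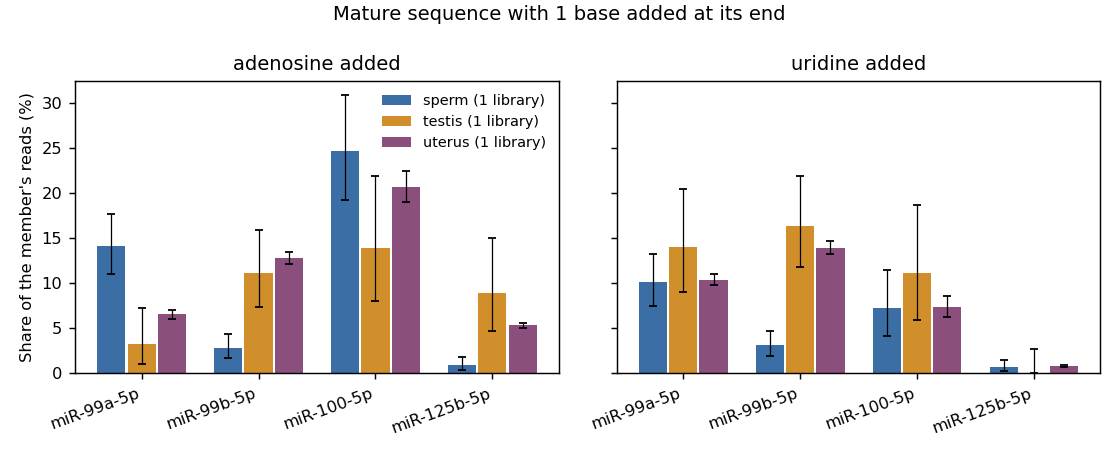
Share of the reads of miR-99a-5p, miR-99b-5p, miR-100-5p and miR-125b-5p, in percent, that held the mature sequence with 1 adenosine (left) or 1 uridine (right, read as T) at the end, in sperm, testis and uterus (1 library each), with exact 95% intervals for counting error. For miR-125b-5p the uridine is the next base of the Mir125b-1 hairpin and does not depart from it. The adenosine form of miR-100-5p reaches 24.7% in sperm, 13.9% in testis and 20.6% in uterus, while that of miR-125b-5p is 0.910% in sperm, 8.89% in testis and 5.29% in uterus.

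Of the 3p arms only those in uterus had enough reads to describe their ends. There miR-125b-1-3p departed from the hairpin in 69.9% (61.4 to 77.4) of its 136 reads, which ended as follows.
miR-125b-1-3p, ending in A: acgggttaggctcttgggagA
miR-125b-1-3p, ending in T: acgggttaggctcttgggagT
miR-125b-1-3p, without either: acgggttaggctcttgggag
None of these forms was read in sperm or testis, against 40, 38 and 25 reads, in the order shown, in uterus. miR-125a-3p departed in 43.1% and miR-99a-3p in 18.5% of their uterus reads. The commonest reads of miR-99a-3p in uterus were longer than its mature 21 nt, since 70.8% followed the hairpin beyond that end.

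The 5′ start, which sets the seed, was nearly fixed. Reads of miR-125b-5p that began 1 base later made up 3.62% (2.50 to 5.04) of the reads at both starts in sperm, 1.46% (0.177 to 5.17) in testis and 0.774% (0.659 to 0.903) in uterus. They numbered 33 in sperm and 2 in testis, against 160 in uterus. For the other 5p members this share ran from 0.438% to 0.889% in sperm, from 0% to 2.16% in testis and from 0.0677% to 1.10% in uterus. The sperm and uterus intervals of miR-125b-5p did not overlap.

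Other microRNAs of the table with the same seeds were few. miR-351-5p, which is X-linked and has the seed CCCUGAG, had 0 reads in sperm and 13 in testis, against 508 in uterus. miR-6367 and miR-6394, with that seed, had 0 reads in all libraries, and no microRNA outside the family had the seed ACCCGUA. In sperm all reads with either seed at base 2 of a listed microRNA were therefore those of the 5 members.

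The microRNAs whose levels were most like those of each member were found by the distance between log2 levels over the 3 libraries, after centring, among 223 microRNAs with at least 100 reads in a library. miR-99b-5p was nearest to miR-30c-2-3p, at a distance of 0.03, followed by miR-411-5p and miR-26a-5p. miR-30c-2-3p stood at 210 in sperm, 158 in testis and 97.7 in uterus. It had the same order of libraries. miR-99a-5p was nearest to miR-335-5p at 0.26, followed by miR-411-5p and miR-127-3p. miR-100-5p was nearest to miR-877-5p at 0.22, followed by miR-872-3p and miR-92a-3p. miR-125a-5p was nearest to miR-27a-3p at 0.15, followed by miR-330-3p and miR-329-3p. miR-125b-5p was nearest to miR-221-5p at 0.31, followed by miR-330-3p and miR-27a-3p. With 3 libraries this is a description, and several of these microRNAs had under 20 reads in sperm or testis.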

How the data were processed

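Libraries were made by adapter ligation, reverse transcription and PCR, per the labels' protocols. Each deposited table gives every distinct sequence and its count of reads, in whole numbers that the authors had not normalized, as far as the values show. The genome build was mm9, per the submitters' processing notes. How adapters were trimmed, and with which software, was not given in the sources used. The sperm and testis tables each held 1 line with no sequence, which was not used.

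Groups follow the labels. A read was a microRNA read when its first 20 bases equalled those of a mature sequence in the RefSeq table (GRCm38.p6), and 3′ ends were compared with the hairpins of Mir99a, Mir100, Mir125a and Mir125b-1, or otherwise with the mature sequence. For miR-125b-5p the hairpin was that of Mir125b-1. Coordinates are GRCm38, with host genes from GENCODE, and were not converted to mm9. Shares have Clopper-Pearson intervals, levels exact Poisson intervals and ratios conditional exact binomial intervals, all at 95%. With 1 library per group no p-value was computed. Python 3.11.15, numpy 2.4.6, scipy 1.17.1, matplotlib 3.10.9 and R 4.3.3 were used, with edgeR 4.0.16 and DESeq2 1.42.0 for alternative scaling factors of the counts only. The matching was also run on simulated reads built from the mature sequences. An exact match of the first 20 bases recovers these by construction, so that run could not fail. The 4-fold rule and the ratio intervals were run on simulated counts.

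The text names all members, the let-7 microRNAs of the clusters, other microRNAs with a member's seed, the 3 nearest microRNAs to each 5p member (log2 of the level plus 1) and the commonest read forms. Members and lists were chosen with earlier results of these data known. Some listed markers were not used here, as they did not match the RefSeq table. Alternatives were other denominators and scaling factors, other matching rules, distinct sequences in place of reads, other read lengths and other count minimums.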

Additional observations from a re-analysis of the deposited data

How the results depend on the processing

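No paired analysis was possible because each group had 1 library, and for the same reason no library could be left out. Under other scalings the log2 ratios of all microRNAs shifted by 1.81 (all reads), 0.73 (TMM) and 0.16 (DESeq2) for sperm over testis, by -4.84, -2.07 and -1.44 for sperm over uterus, and by -6.65, -2.80 and -1.60 for testis over uterus. The family ratio of sperm over testis, 1.57, was 5.48 per 1000000 of all reads, 2.60 with TMM, 1.75 with DESeq2, 1.71 with the first 18 bases, 2.29 with 1 mismatch allowed, 1.16 over distinct sequences, 1.07 with reads of 20 to 24 nt and 1.09 without miR-7210-5p. That of sperm over uterus, 1.44, was 0.0502 per 1000000 of all reads, 0.343 with TMM, 0.533 with DESeq2, 1.36 with 1 mismatch, 0.586 over distinct sequences and 1.24 per 1000000 reads of 20 to 24 nt on a GENCODE hairpin. That of testis over uterus, 0.921, was 0.00915 per 1000000 of all reads, 0.132 with TMM, 0.305 with DESeq2, 0.836 with 18 bases, 0.595 with 1 mismatch, 0.505 over distinct sequences, 1.37 with 20 to 24 nt, 0.759 on GENCODE hairpins and 1.32 without miR-7210-5p. The members at least 4-fold apart between sperm and testis numbered 0, but 4 per 1000000 of all reads, 1 with TMM, 1 with 1 mismatch and 1 with no count minimum. Between sperm and uterus they numbered 2, but 9 per 1000000 of all reads, 5 with TMM, 4 with DESeq2, 0 over distinct sequences, 1 without sequences of a single read and 4 with no minimum. They numbered 3 with the first 18 bases, with 1 mismatch, with a minimum of 20 reads and on GENCODE hairpins. Between testis and uterus they numbered 0, but 9 per 1000000 of all reads, 8 with TMM, 3 with DESeq2, 1 with 20 to 24 nt, 1 with a minimum of 20 reads, 2 with no minimum and 1 without miR-7210-5p. The share over all microRNAs was counted for the main setting only. Another scaling shifts every microRNA by the same amount, so these counts under other scalings are not a result about the family. The denominators of GENCODE hairpins and without miR-7210-5p, and the matching alternatives for the shares and arms, were chosen after seeing the data. miR-125b-5p led sperm and miR-99b-5p led testis under all 7 settings that could change the mix, while uterus was led by miR-125b-5p except over distinct sequences, where miR-99b-5p led. Of the other 90 values of the members' shares, 76 stayed within the interval. So did 69 of 90 values of the 5p shares and 29 of 45 of the share at the commonest length. For departing ends it was 23 of 36, and for the share of miR-125b-1-3p 9 of 12. Ratios were less stable, with 76 of 165 within the interval and 89 moved. Apart from effects of the settings' own construction, the cause of these changes was not tested. Few family reads limit testis most, where miR-125a-5p rests on 45 reads, and the 3p arms rest on 14 reads in sperm and 14 in testis.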

Other observations

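Position 16, which alone separates miR-99a-5p from miR-100-5p, was read as neither of their bases in few reads. Reads with C there numbered 0 in sperm and 0 in testis, against 5 in uterus, and reads with G numbered 0 in sperm and 0 in testis, against 1 in uterus. Some 3p arms had a second start. miR-125b-1-3p began 1 base earlier in 1 read in sperm, 0 in testis and 23 in uterus, beside 2 sperm, 0 testis and 136 uterus reads at the annotated start. miR-100-3p began 1 base later in 0 reads in sperm and 1 in testis, against 5 in uterus, beside 0 sperm, 1 testis and 4 uterus reads at the annotated start.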
